A study of Mus musculus with 55 samples.

Results

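The 10 genes described here stand for the muscle enzymes that break down glycogen and carry its sugar through glycolysis, together with Pdk4, a kinase that switches off the pyruvate dehydrogenase complex inside the mitochondrion. They were chosen by symbol, as the rows Pygm, Phkg1, Gpd1, Pgm1, Pfkm, Aldoa, Pgam2, Eno3, Ldha and Pdk4 of the deposited expression table, and all 10 were found among its 24453 genes. The Pgm1 row did not behave as a muscle enzyme in level or pattern, and which gene it holds is not settled. Levels were measured by sequencing of polyadenylated RNA in 55 libraries of 3 hindlimb muscles of mice. The mdx mice carry a mutation in Dmd in every cell, lack full-length dystrophin and serve as a model of Duchenne muscular dystrophy. The other mice were wild type, and their strain and sex are not stated. Mice were 2 or 5 months old. From the foot, the flexor digitorum brevis (FDB) gave 3 mdx and 4 wild-type libraries at 2 months, and 7 mdx and 4 wild-type libraries at 5 months. The extensor digitorum longus (EDL), a fast muscle of the lower leg, gave 4 mdx and 4 wild-type libraries at 2 months, and 6 mdx and 4 wild-type libraries at 5 months. The soleus (SOL), a slow oxidative muscle, gave 4 mdx and 4 wild-type libraries at 2 months, and 7 mdx and 4 wild-type libraries at 5 months. The study asked how far and how fast mdx disease proceeds in each muscle, so mdx was set against wild type within a muscle and age, and the resulting differences were set against each other across ages and across muscles.

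Contracting muscle takes glucose 1-phosphate from glycogen through glycogen phosphorylase, which phosphorylase kinase switches on, and the sugar then passes through the glycolytic enzymes to pyruvate. Pyruvate becomes lactate through lactate dehydrogenase, or enters the pyruvate dehydrogenase complex, which the pyruvate dehydrogenase kinases switch off by phosphorylation. Fast fibres depend on this route far more than slow fibres do, and most of its steps have an isozyme particular to skeletal muscle beside the isozymes of other tissues.

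Levels are given as RPKM, read numbers divided by transcript length and by the reads mapped in that library, as the authors deposited them. Differences are on the scale of log2(RPKM + 1) and come from limma, fitted to the 12541 genes that averaged 0.5 RPKM or more, and all 10 genes passed that filter. A gene is said to have risen or fallen where its p, adjusted by the Benjamini-Hochberg method over those genes, was below 0.05. Dmd itself had 1.54 to 3.91 RPKM in the mdx libraries and 6.42 to 12.1 RPKM in the wild-type libraries, so every library matched its labelled genotype. Depth, read from the steps between low values, was about 20.3 to 66.3 M (mega) reads a library. The median gene was 0.0995 to 0.229 higher in mdx than in wild type on the log2 scale in the 6 comparisons, and the differences below should be read against that shift. All 10 macrophage markers had a higher level in mdx FDB at both ages, with an adjusted p below 0.05, and 9 or 10 of them did so in EDL and SOL. The 5 markers of regenerating fibres (Myh3, Myh8, Myog, Tmem8c and Myl4) rose in all 6 comparisons. As a check of the muscle labels, 7 slow-fibre markers summed to 11040 to 14040 RPKM in wild-type SOL at 5 months and 15.4 to 45.9 RPKM in wild-type EDL, with FDB between them at 3354 to 4163 RPKM. Whole muscle was sequenced, so fewer cells of a type and less RNA per cell cannot be told apart. The labels do not say that the libraries of a group came from separate animals, so the p-values measure the spread between libraries, which may in part be technical.

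The promoters of 3 of the genes are shown first, since Pygm, Ldha and Pdk4 stand for 3 kinds of difference in RPKM as deposited: lower in mdx FDB, higher in mdx SOL, and lower in mdx at 5 months in every muscle. Each line holds 300 bases of RefSeq sequence (GRCm38.p6) on the gene's strand, from 250 bases before an annotated start to 50 bases after it. Capitals mark matches, on either strand, to the E-box CANNTG, which factors of the MyoD family bind in muscle, to ACGTG, the core of the hypoxia response element, and to GTAAACA, which forkhead factors bind.
Pygm, chr19:6384158-6384457, plus strand: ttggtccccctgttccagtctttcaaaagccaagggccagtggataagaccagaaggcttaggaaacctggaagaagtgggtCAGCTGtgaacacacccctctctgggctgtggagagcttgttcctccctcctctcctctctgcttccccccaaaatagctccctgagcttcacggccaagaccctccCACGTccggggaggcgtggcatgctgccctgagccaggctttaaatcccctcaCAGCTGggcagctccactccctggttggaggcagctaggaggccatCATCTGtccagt
Ldha, chr7:46845554-46845853, plus strand: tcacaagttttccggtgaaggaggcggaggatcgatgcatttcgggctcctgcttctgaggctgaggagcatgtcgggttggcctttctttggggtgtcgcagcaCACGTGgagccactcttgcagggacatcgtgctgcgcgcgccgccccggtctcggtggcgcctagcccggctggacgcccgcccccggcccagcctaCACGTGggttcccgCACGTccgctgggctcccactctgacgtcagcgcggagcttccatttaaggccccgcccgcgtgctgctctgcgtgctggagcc
Pdk4, chr6:5496229-5496528, minus strand: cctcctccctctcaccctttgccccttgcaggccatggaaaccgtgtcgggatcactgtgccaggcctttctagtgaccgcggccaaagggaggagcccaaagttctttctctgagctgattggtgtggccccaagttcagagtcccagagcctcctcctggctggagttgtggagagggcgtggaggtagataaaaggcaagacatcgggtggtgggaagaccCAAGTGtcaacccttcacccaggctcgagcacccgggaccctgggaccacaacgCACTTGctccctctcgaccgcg
The window of Pygm held 3 E-boxes and 1 match to ACGTG. The window of Ldha, the first of its 2, held 5 matches to ACGTG, of which 4 are the 2 strands of its 2 CACGTG sites, and those 2 sites are also its 2 E-boxes. The window of Pdk4 held 2 E-boxes and no match to ACGTG. RefSeq windows were on hand for 8 of the genes, 14 windows in all since some genes have several starts. E-boxes lay in 13 of these 14 windows, against 72.3% of all 32851 promoter windows, and ACGTG lay in 6 of the 14, against 19.6% of all windows. Some windows of Aldoa and of Pfkm overlap, so shared bases were counted more than once. By gene, E-boxes lay in 8 of the 8 and ACGTG in 4 of the 8. GTAAACA lay in none of the 14 and in 3.65% of all windows, which says only that these letters are not in these windows.

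By group means in wild-type mice, 8 of the 10 genes shared one order of muscles, EDL above FDB above SOL. In mdx mice the same 8 stood highest in EDL. Pygm, Phkg1, Gpd1, Pfkm, Aldoa, Pgam2, Eno3 and Ldha were lower in SOL than in EDL in wild-type mice, by 1.09 (Pgam2) to 3.02 (Gpd1) on the log2 scale at 2 months and by 1.26 (Pgam2) to 3.38 (Gpd1) at 5 months. The same 8 were lower in FDB than in EDL, by 0.58 (Pfkm) to 1.92 (Gpd1) at 2 months and by 0.51 (Eno3) to 3.05 (Gpd1) at 5 months. Against SOL, wild-type FDB was higher in all 8 at 2 months, by 0.28 (Pgam2) to 1.10 (Gpd1), and in 7 of them at 5 months, Gpd1 being 0.33 higher with an adjusted p of 0.0665. The step of Pgam2 between FDB and SOL at 2 months turned to -0.0041 under median-of-ratios scaling. Under that scaling the steps of Ldha at 2 months (0.20, adjusted p = 0.0557) and of Pgam2 at 5 months (0.23, adjusted p = 0.0585) between these muscles no longer passed. As deposited, adjusted p in these called differences was at most 0.00423. Of all genes, 52.3% and 54.4% differed between wild-type SOL and EDL at 2 and 5 months, 71.7% and 72.7% between FDB and EDL, and 70.3% and 68.5% between FDB and SOL. Pdk4 ran the other way, with its level 3.22 higher in wild-type SOL than in EDL at 2 months (adjusted p = 1.38e-09) and 1.25 higher at 5 months (adjusted p = 0.00606). Under quantile normalization the difference at 5 months was 0.78 (adjusted p = 0.102) and no longer passed. Against SOL, wild-type FDB had Pdk4 lower by 2.32 on the log2 scale at 2 months and by 1.37 at 5 months (adjusted p = 1.23e-06 and 0.002). In mdx muscles the same 8 genes were lower in SOL and in FDB than in EDL at both ages, where 45.5% and 59.2% of all genes (SOL against EDL) and 67.5% and 76.8% (FDB against EDL) differed. Between mdx FDB and SOL, where 67.1% and 78.3% of all genes differed, Pgam2 was at -0.02 at 2 months (adjusted p = 0.861) and was lower in FDB by 0.33 at 5 months (adjusted p = 1.57e-05), and Ldha was at 0.12 and 0.02 (adjusted p = 0.17 and 0.8). Under quantile normalization Pgam2 was 0.20 and 0.07 higher in mdx FDB than in mdx SOL, and Ldha was 0.27 and 0.42 higher (adjusted p = 0.00941 and 8.39e-08). Under median-of-ratios scaling Ldha was lower in mdx FDB by 0.25 at 5 months (adjusted p = 0.0015), so the order of these muscles depends on the scale for both genes.

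**Figure D1:**
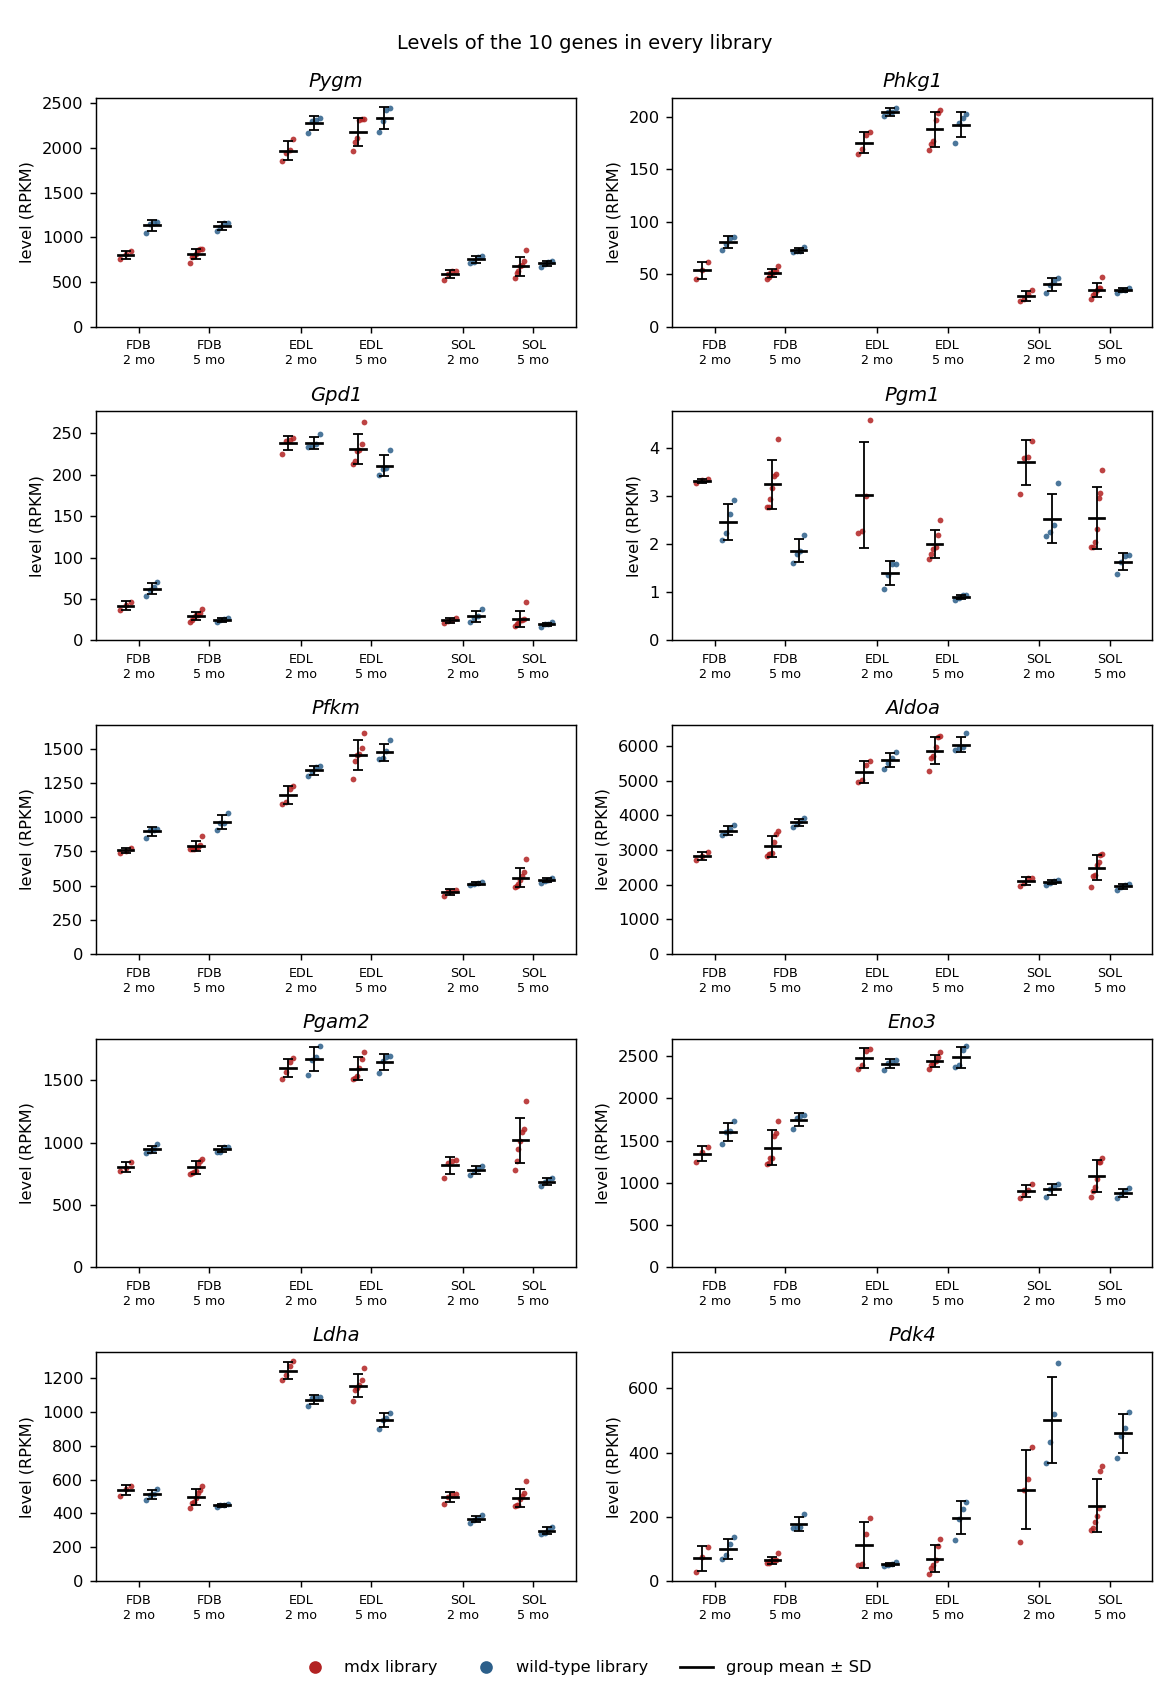
Level of each of the 10 genes in RPKM (linear axes from 0), by muscle and age, with mdx left of wild type. Points are libraries, bars are group means with SD (n = 3 to 7). Of the 10 genes, 8 stand highest in EDL; Pdk4 stands highest in SOL, and its 5-month mdx means of 65.3, 70.1 and 235 RPKM in FDB, EDL and SOL lie below the wild-type means of 177, 198 and 460 RPKM.

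Aldoa was the most abundant of the 10, with group means of 1949 to 6047 RPKM, and Pgm1 the least, with 0.907 to 3.71 RPKM. Group means of Gpd1, the cytosolic glycerol 3-phosphate dehydrogenase that links glycolysis to glycerolipids and to the shuttling of NADH, spanned 12.3-fold, the widest range of the 10. Those of Pgam2 spanned 2.43-fold, the narrowest. Over the 12 group means, Pearson's r between pairs of the 8 genes ran from 0.839 (Pfkm with Ldha) to 0.995 (Pygm with Phkg1). Pdk4 had r of -0.681 (with Eno3) to -0.487 (with Pgam2) with those 8. These correlations describe 12 means that share muscles, and no test was made on them. Among 3898 candidate genes that averaged 5 RPKM or more and varied between groups, the 5 most like the mean of the 8 were Camk2a, Tspan8, Atp2a1, Gpd2 and Pgm2 (r = 0.991, 0.988, 0.987, 0.987 and 0.985 over 12 groups). For Pdk4 they were Slc25a34, Acot2, Hspb6, Mtfr1 and Gnpat (r = 0.924, 0.923, 0.917, 0.912 and 0.906).

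Counted over the 10 genes, mdx FDB had 0 higher and 6 lower at 2 months, and 2 higher and 7 lower at 5 months. In all genes, 30.0% were higher and 4.60% lower in mdx FDB at 2 months, and 53.1% higher and 9.46% lower at 5 months. In mdx EDL, 2 of the 10 were higher and 2 lower at 2 months (41.6% and 8.69% of all genes), and 2 were higher and 1 lower at 5 months (60.2% and 8.52%). In mdx SOL, 2 were higher and 3 lower at 2 months (32.3% and 7.68% of all genes), and 6 were higher and 1 lower at 5 months (52.9% and 11.3%). The median difference of the 10 was -0.29 in mdx FDB at both ages, against 0.12 and 0.18 for all genes. In mdx EDL the median of the 10 was -0.03 at both ages, against 0.14 and 0.23 for all genes. In mdx SOL the median of the 10 was -0.12 at 2 months, against 0.10 for all genes, and 0.30 at 5 months, against 0.18. These counts depend on how libraries are put on one scale. Under median-of-ratios scaling, the higher and lower calls were 0 and 7, then 1 and 7, in FDB at 2 and 5 months, 1 and 5, then 1 and 7, in EDL, and 1 and 5, then 3 and 4, in SOL. Under it 3285 and 8025 of the 12541 tested genes were called in FDB, of which 1224 and 3255 were higher. In EDL 6101 and 7697 were called (2696 and 3238 higher), and in SOL 5358 and 7602 (2193 and 3506 higher). The others called were lower. Relative to 6 genes of adult fibres (Acta1, Ckm, Des, Ttn, Neb and Mb), a scaling chosen after seeing the data, they were 2 and 2, then 3 and 1, in FDB, 3 and 0, then 2 and 1, in EDL, and 3 and 1, then 6 and 1, in SOL. On that last scale 8627 and 11351 of the 12541 tested genes rose in FDB at 2 and 5 months. In EDL 5875 and 9282 rose on it, and in SOL 6335 and 7586.

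**Figure D2:**
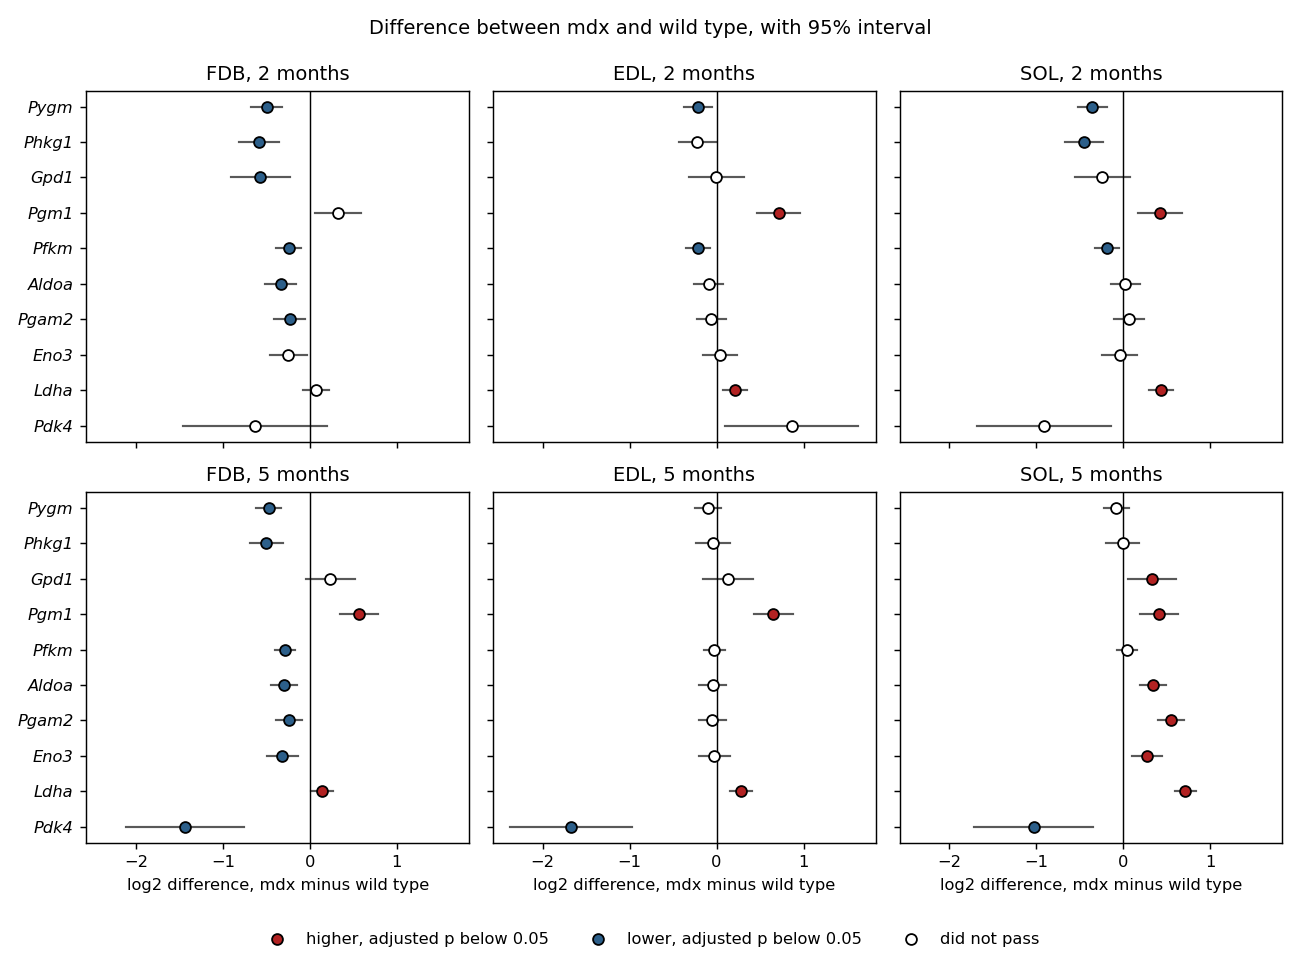
Difference between mdx and wild type on the log2(RPKM + 1) scale for each gene (rows), with its 95% interval from limma, by muscle (columns) and age (rows of panels). Filled points passed an adjusted p of 0.05: in FDB most genes lie left of 0, at 5 months Pdk4 lies left of 0 in all 3 muscles, from -1.67 to -1.03, and in SOL at 5 months 6 filled points lie right of it.

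**Figure D3:**
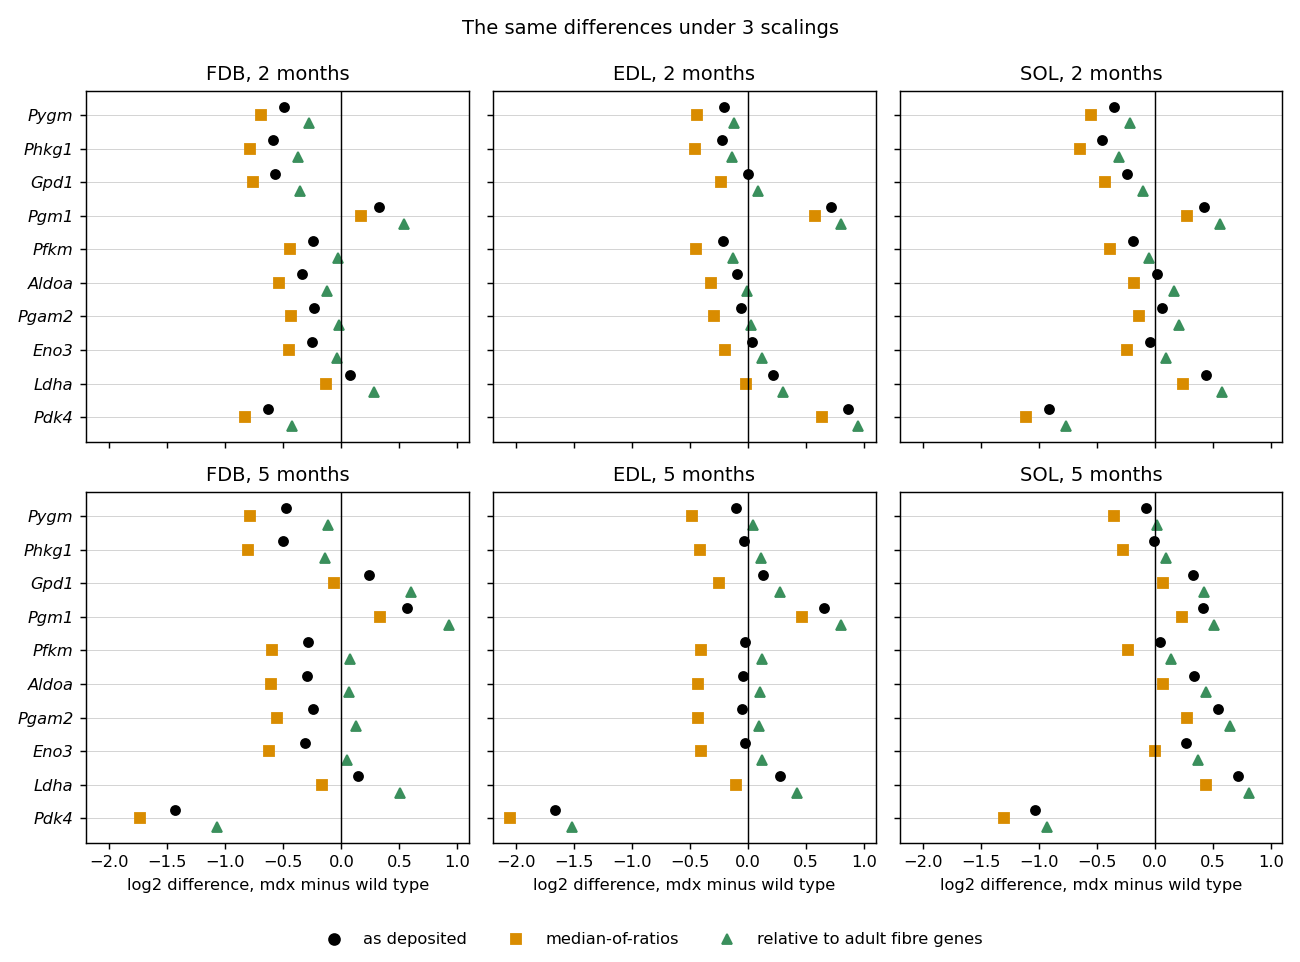
The same differences between mdx and wild type (log2) under 3 scalings: RPKM as deposited, median-of-ratios scaling, and relative to 6 adult fibre genes. Pdk4 at 5 months lies below 0 under each, at -1.07 to -1.74 in FDB, while Ldha in EDL at 5 months lies at 0.28, -0.10 and 0.42, and the differences of Pfkm, Aldoa, Pgam2 and Eno3 in FDB at 5 months lie just above 0 relative to fibre genes.

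Pygm, the muscle glycogen phosphorylase whose loss causes McArdle disease in people (chromosome 19, 6384408 to 6398464, plus strand), fell in mdx FDB at both ages and in mdx EDL and SOL at 2 months. In FDB at 2 months it had 756, 846 and 809 RPKM in the mdx libraries, against 1047, 1163, 1177 and 1148 RPKM in the wild-type libraries, a difference of -0.50 ± 0.09 (SE; adjusted p = 0.000115). In FDB at 5 months the 7 mdx libraries had 713 to 875 RPKM with a median of 813, against 1166, 1166, 1073 and 1113 RPKM in wild type, a difference of -0.48 ± 0.07 (adjusted p = 4.15e-07). No mdx FDB library of either age reached the lowest wild-type one, and relative to adult fibre genes these differences were -0.28 and -0.11, and the second no longer passed (adjusted p = 0.218). In SOL at 2 months Pygm had 523, 625, 588 and 625 RPKM in mdx, against 725, 780, 714 and 796 RPKM in wild type (-0.35 ± 0.08, adjusted p = 0.000661), again without overlap. That call was lost under quantile normalization (-0.23, adjusted p = 0.117) and relative to adult fibre genes (-0.21, adjusted p = 0.0646). In EDL at 2 months the difference was -0.21 ± 0.08 (adjusted p = 0.0324), and it no longer passed without any one of the libraries ns35, ns36, ns41, ns42 or ns43 (-0.18 without ns36, adjusted p = 0.103), under quantile normalization (-0.19, adjusted p = 0.166) or relative to adult fibre genes (-0.12, adjusted p = 0.29). At 5 months mdx EDL had 1963 to 2322 RPKM (median 2211), against 2421, 2299, 2178 and 2452 RPKM in wild type, and mdx SOL had 545 to 861 RPKM (median 676), against 668, 700, 729 and 735 RPKM. Those 2 groups overlapped with their wild type, with differences of -0.10 (95% interval -0.25 to 0.0488) and -0.08 (-0.225 to 0.0656). Under median-of-ratios scaling these 2 differences were -0.48 and -0.35 and passed (adjusted p = 1.39e-05 and 0.00072), and under quantile normalization that in SOL passed at -0.28 (adjusted p = 0.0155).

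Phkg1, the catalytic subunit of muscle phosphorylase kinase (chromosome 5, 129863431 to 129879134, minus strand), fell in mdx FDB at both ages and in mdx SOL at 2 months. It had 45.1, 61.3 and 54.5 RPKM in mdx FDB at 2 months, against 73.5, 84.7, 79.2 and 85.3 RPKM in wild type (-0.59 ± 0.12, adjusted p = 0.000322). At 5 months mdx FDB had 45.1 to 57.6 RPKM (median 51.3), against 75.9, 72.1, 72.0 and 71.2 RPKM in wild type (-0.50 ± 0.10, adjusted p = 1.87e-05). Both ages showed no overlap in FDB, and relative to adult fibre genes the difference at 5 months was -0.14 and no longer passed (adjusted p = 0.2). In SOL at 2 months Phkg1 fell by 0.45 ± 0.11 (adjusted p = 0.000869), with 24.2, 35.0, 26.7 and 31.1 RPKM in mdx and 31.8, 44.0, 39.4 and 46.6 RPKM in wild type. The other comparisons did not pass, with values of -0.22 in EDL at 2 months, -0.04 in EDL at 5 months and -0.01 in SOL at 5 months, as deposited. Under median-of-ratios scaling all 3 passed, at -0.45, -0.42 and -0.27 (adjusted p = 0.00264, 0.00168 and 0.0338). The value in EDL at 2 months also passed under quantile normalization (-0.31, adjusted p = 0.0376) and with the 2 groups alone (adjusted p = 0.00284). Phkg1 shares its locus with Sumf2 on the other strand, and how counting used strand was not given in the labels or headers.

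The other 18 tested genes of glycogen metabolism included 1 to 4 that rose and 4 to 9 that fell in a given comparison. In FDB, 1 rose and 6 fell at 2 months and 2 rose and 9 fell at 5 months. In EDL, 4 rose and 4 fell, then 4 rose and 7 fell, and in SOL, 1 rose and 8 fell, then 2 rose and 7 fell. Over all genes, 30.0% to 60.2% rose and 4.60% to 11.3% fell in these 6 comparisons. Ppp1r3a, the glycogen-targeting subunit of protein phosphatase in muscle, fell in all 6 comparisons, by 0.26 (EDL, 5 months) to 0.42 (SOL, 5 months). Epm2a, the glycogen phosphatase laforin, fell in all 6 as well, by 0.25 (EDL, 5 months) to 0.54 (SOL, 5 months). Stbd1, a protein that binds glycogen and takes part in its delivery to lysosomes, rose in all 6, by 0.53 (FDB, 2 months) to 1.70 (EDL, 2 months). Its mean level was 47.2 ± 6.52 RPKM in mdx EDL at 2 months and 13.8 ± 1.18 RPKM in wild-type EDL (SD, n = 4 each). Phka1, the regulatory alpha subunit of muscle phosphorylase kinase, fell in 5 of the 6, the exception being EDL at 2 months (-0.07). The list itself, set relative to adult fibre genes, held 3 that rose and 0 that fell in FDB at 2 months and 10 and 0 at 5 months. Among the 12541 tested genes, 8627 and 11351 rose in those 2 comparisons. On that scale Ppp1r3a kept its fall in 2 of the 6 comparisons, Epm2a in 2 and turned to 0.10 in FDB at 5 months, and Phka1 lost its falls in FDB. Stbd1 lost its call in FDB at 2 months under median-of-ratios scaling (0.34, adjusted p = 0.084) and in no other comparison under the 3 scalings.

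The row named Pgm1 had 0.907 to 3.71 RPKM as group means, and the row named Pgm2 had 101 to 395 RPKM. Phosphoglucomutase turns glucose 1-phosphate from glycogen into glucose 6-phosphate. In RefSeq (GRCm38.p6), Pgm1 is listed among the older names of Pgm2 and Pgm2 among those of Pgm1, and the table gives no gene identifiers, so which of the 2 genes each row holds cannot be told from the names, and no position is given for either. By level and pattern the Pgm2 row went with the muscle enzymes, with r = 0.985 to the mean of the 8 over the 12 group means. The Pgm1 row had r of -0.61 (with Pygm) to -0.265 (with Ldha) with those 8. The Pgm1 row rose in 5 of the 6 comparisons. In EDL at 5 months it had 1.71 to 2.51 RPKM in mdx (median 1.93), against 0.847 to 0.955 RPKM in wild type (0.65 ± 0.12, adjusted p = 4.1e-06). In EDL at 2 months it had 3.03 ± 1.1 RPKM in mdx and 1.40 ± 0.242 RPKM in wild type (SD, n = 4 each; 0.71 ± 0.13, adjusted p = 8.87e-06). The rises were 0.56 in FDB at 5 months, 0.42 in SOL at 2 months and 0.41 in SOL at 5 months. The call in SOL at 2 months was lost under median-of-ratios scaling (0.28, adjusted p = 0.0529) and quantile normalization (0.22, adjusted p = 0.11), and that in SOL at 5 months under quantile normalization (0.14, adjusted p = 0.218). In FDB at 2 months the value was 0.32 (adjusted p = 0.0621), and it passed without the wild-type library ns09 (0.38, adjusted p = 0.0395), with the 2 groups alone (adjusted p = 0.0131) and relative to adult fibre genes (0.54, adjusted p = 0.00555). The Pgm2 row fell in mdx FDB, by 0.29 at 2 months and 0.23 at 5 months (adjusted p = 0.011 and 0.0054), and did not pass in EDL (0.00 and 0.07) or SOL (-0.19 and 0.13). Its direction depends on the scale, since relative to adult fibre genes it was at 0.13 in FDB at 5 months, and under median-of-ratios scaling it fell by 0.23 and 0.31 in EDL. The 5 genes most like the Pgm1 row were Tpm4, Mtpn, Hif1a, Ctnnd1 and Bcl10 (r = 0.991, 0.978, 0.976, 0.976 and 0.967 over the 12 group means). Macrophage markers were also higher in mdx EDL at 5 months, at 169 to 545 RPKM in sum, against 37.6 to 90.5 RPKM in wild-type EDL. Within EDL and within SOL, the group means of the Pgm1 row and of the macrophage sum stood in one order. From the top it was mdx at 2 months, mdx at 5 months, wild type at 2 months and wild type at 5 months. In FDB the sum was higher in mdx at 5 than at 2 months (619 and 576 RPKM), and the row was not (3.25 and 3.32 RPKM). Between muscles the orders differed. Wild-type SOL at 2 months had a mean of 2.53 RPKM in that row and a mean macrophage sum of 72.3 RPKM, and mdx EDL at 5 months had 2.01 and 322 RPKM. The part of macrophages in the rise of the Pgm1 row was not tested.

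Pfkm, the muscle phosphofructokinase that commits sugar to glycolysis (chromosome 15, 98092589 to 98132447, plus strand), fell in mdx FDB at both ages and in mdx EDL and SOL at 2 months. In FDB at 5 months it had 765 to 863 RPKM in mdx (median 776), against 910 to 1030 RPKM in wild type (-0.29 ± 0.06, adjusted p = 7e-05), a fall that turned to 0.08 relative to adult fibre genes (adjusted p = 0.307). At 2 months the falls were 0.24 in FDB, 0.21 in EDL and 0.19 in SOL, with adjusted p of 0.00995, 0.00835 and 0.0246. The call in FDB at 2 months was lost without mdx library ns01 (-0.23, adjusted p = 0.0501). That in SOL at 2 months was lost without ns17 (-0.16, adjusted p = 0.0954), ns26 or ns28. All 3 were lost relative to adult fibre genes, at -0.03, -0.13 and -0.05, and under quantile normalization those in FDB (-0.22, adjusted p = 0.133) and SOL (-0.11, adjusted p = 0.395). At 5 months Pfkm did not pass in EDL (-0.03, interval -0.147 to 0.0971) or SOL (0.04, interval -0.0751 to 0.162), while under median-of-ratios scaling it fell by 0.41 in EDL and SOL turned to -0.23 (adjusted p = 2.31e-05 and 0.0101). Pfkm overlaps Senp1 on the other strand.

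Aldoa, the aldolase of muscle (chromosome 7, 126795234 to 126800994, minus strand), fell in mdx FDB and rose in mdx SOL at 5 months. In FDB at 2 months it had 2702, 2940 and 2825 RPKM in mdx, against 3424, 3483, 3614 and 3724 RPKM in wild type (-0.34 ± 0.09, adjusted p = 0.00451). In FDB at 5 months it had 2840 to 3535 RPKM in mdx (median 2899), against 3910, 3839, 3757 and 3673 RPKM in wild type (-0.29 ± 0.08, adjusted p = 0.000747). Both falls were lost under quantile normalization, at -0.09 and -0.07 (adjusted p = 0.702 and 0.647), and relative to adult fibre genes they were at -0.12 and 0.07. In SOL at 5 months it had 1929 to 2888 RPKM in mdx (median 2576), against 1937, 1843, 1984 and 2031 RPKM in wild type (0.34 ± 0.08, adjusted p = 0.000118). The mdx SOL libraries reached from inside the wild-type range to well above it. The rise was lost under median-of-ratios scaling (0.07, adjusted p = 0.559), under quantile normalization (0.10, adjusted p = 0.491) and with the 2 groups alone (adjusted p = 0.0634). In EDL the values as deposited were -0.09 and -0.05 and did not pass, while under median-of-ratios scaling they were -0.32 and -0.43 and passed (adjusted p = 0.0153 and 0.000375).

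Pgam2 and Eno3, the muscle phosphoglycerate mutase (chromosome 11, 5801637 to 5803796, minus strand) and the muscle enolase (chromosome 11, 70653125 to 70662513, plus strand), also fell in mdx FDB at 5 months and rose in mdx SOL at 5 months in the RPKM values as deposited. In SOL at 5 months Pgam2 had 779 to 1330 RPKM in mdx (median 1012), against 716, 649, 681 and 702 RPKM in wild type (0.55 ± 0.08, adjusted p = 4.43e-08), and every mdx library lay above every wild-type one. This rise also passed under median-of-ratios scaling (0.28, adjusted p = 0.0129) and quantile normalization (0.42, adjusted p = 7.75e-07). In FDB at 5 months it had 749 to 870 RPKM in mdx (median 776), against 925 to 967 RPKM in wild type (-0.24 ± 0.08, adjusted p = 0.00566), with every mdx library below. In FDB at 2 months Pgam2 fell by 0.23 (adjusted p = 0.0471), a call lost without ns01 (-0.20, adjusted p = 0.16), ns04, ns09, ns10, ns11 or ns12. That call was also lost under quantile normalization (-0.19, adjusted p = 0.07), with a pseudocount of 0.1 (adjusted p = 0.0505) and without the filter (adjusted p = 0.0753). Relative to adult fibre genes it was at -0.02 (adjusted p = 0.831). Eno3 rose by 0.27 ± 0.09 in SOL at 5 months (adjusted p = 0.00728), with 831 to 1301 RPKM in mdx (median 1050) and 818 to 937 RPKM in wild type, and it fell by 0.32 ± 0.09 in FDB at 5 months (adjusted p = 0.00217). The rise of Eno3 was lost under median-of-ratios scaling (0.00078, adjusted p = 0.996), under quantile normalization (0.09, adjusted p = 0.371) and with the 2 groups alone (adjusted p = 0.13). Relative to adult fibre genes the falls of Pgam2 and Eno3 in FDB at 5 months turned to 0.12 and 0.05 (adjusted p = 0.0941 and 0.518). In FDB at 2 months Eno3 was at -0.25 (adjusted p = 0.0691), and it passed without ns09 (-0.29, adjusted p = 0.0484), under median-of-ratios scaling (-0.45, adjusted p = 0.0128) and with the 2 groups alone (adjusted p = 0.0238). In EDL both genes stayed within 0.06 of 0 as deposited and did not pass. Under median-of-ratios scaling Pgam2 fell there by 0.29 and 0.43 (adjusted p = 0.0256 and 0.000247) and Eno3 by 0.41 at 5 months (adjusted p = 0.00229).

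Gpd1 (chromosome 15, 99717587 to 99725014, plus strand) fell in mdx FDB at 2 months, with 36.3, 46.6 and 42.7 RPKM in mdx against 54.1, 70.4, 61.1 and 64.6 RPKM in wild type (-0.57 ± 0.17, adjusted p = 0.00991). The groups did not overlap, and the call was lost without ns01 (-0.47, adjusted p = 0.0776) and relative to adult fibre genes (-0.36, adjusted p = 0.0873). At 5 months mdx FDB had 21.6 to 37.7 RPKM (median 30.4), against 21.7 to 26.5 RPKM in wild type (0.24, adjusted p = 0.145), and relative to adult fibre genes the difference was 0.60 (adjusted p = 0.000435). In EDL the level was 238 ± 8.62 RPKM in mdx and 239 ± 7.04 RPKM in wild type at 2 months (SD, n = 4 each). In SOL at 5 months Gpd1 rose by 0.33 ± 0.14 (adjusted p = 0.0402), but library ns58 alone had 46.8 RPKM, the other 6 mdx libraries had 17.2 to 25.9 RPKM and the wild-type libraries had 16.7, 19.3, 21.6 and 20 RPKM. Without ns58 the value was 0.18 (adjusted p = 0.169), and the call was also lost without any one of ns29, ns30, ns32, ns51 and ns59, and under median-of-ratios scaling (0.07, adjusted p = 0.697) and quantile normalization (0.12, adjusted p = 0.499). In SOL at 2 months Gpd1 was at -0.24 as deposited and passed under median-of-ratios scaling (-0.43, adjusted p = 0.0314).

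Of the 17 tested genes in the rest of glycolysis and sugar transport, 2 rose and 6 fell in mdx FDB at 2 months, and 3 rose and 9 fell at 5 months. In mdx EDL, 8 rose and 5 fell, then 7 rose and 6 fell, and in mdx SOL, 4 rose and 4 fell, then 9 rose and 4 fell. The shares over all genes were 41.6% higher and 8.69% lower in EDL at 2 months and 52.9% and 11.3% in SOL at 5 months. In FDB they were 30.0% and 4.60%, then 53.1% and 9.46%. Tpi1, triose phosphate isomerase, fell in FDB (by 0.27 and 0.15 at 2 and 5 months) and rose in EDL (0.20 and 0.28) and SOL (0.16 and 0.60). Gpi1, the isomerase of glucose 6-phosphate, did likewise, with falls of 0.16 and 0.14 in FDB, rises of 0.19 and 0.29 in EDL and rises of 0.17 and 0.36 in SOL. Hk2, the hexokinase of insulin-sensitive muscle, fell in all 6 comparisons, by 0.39 (FDB, 2 months) to 0.66 (EDL, 2 months). Hk1, the hexokinase of most other cells, rose in all 6, by 0.60 (FDB, 2 months) to 0.89 (EDL, 5 months). Pfkfb1, which makes and breaks the activator fructose 2,6-bisphosphate, fell in all 6, by 0.52 (FDB, 5 months) to 0.98 (SOL, 2 months). The counts also depend on the scale, since 10 of the 17 rose and 0 fell in FDB at 5 months relative to adult fibre genes, and 3 rose and 12 fell under median-of-ratios scaling. Relative to adult fibre genes 11351 of the 12541 tested genes rose in that comparison. Under median-of-ratios scaling 8025 of the 12541 were called in it, 3255 of them higher and the rest lower. The directions of Tpi1 and Gpi1 depend on the scale too. Under median-of-ratios scaling Tpi1 was at -0.04 and -0.10 in EDL and -0.03 in SOL at 2 months, and Gpi1 at -0.05, -0.09 and -0.03, and relative to adult fibre genes both were higher in FDB at 5 months (0.21 and 0.22). Hk1 kept its call under all 3 scalings, while relative to adult fibre genes Hk2 lost its call in FDB at both ages and in EDL at 5 months, and Pfkfb1 in FDB at 5 months (-0.16, adjusted p = 0.234).

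Ldha, the subunit that predominates in fast muscle and favours lactate (chromosome 7, 46842274 to 46855627, plus strand), rose in mdx EDL and SOL at both ages in the RPKM values as deposited, with a change of direction in EDL under another scaling. In SOL at 2 months it had 454, 518, 500 and 514 RPKM in mdx, against 368, 358, 346 and 392 RPKM in wild type (0.44 ± 0.07, adjusted p = 3.75e-06). In SOL at 5 months it had 446 to 591 RPKM in mdx (median 483), against 280, 287, 323 and 304 RPKM in wild type (0.71 ± 0.06, adjusted p = 6.41e-13). In EDL at 2 months it had 1303, 1274, 1217 and 1190 RPKM in mdx, against 1086, 1085, 1036 and 1089 RPKM in wild type (0.21 ± 0.07, adjusted p = 0.011). In EDL at 5 months it had 1065 to 1261 RPKM in mdx (median 1149), against 963, 901, 954 and 996 RPKM in wild type (0.28 ± 0.07, adjusted p = 0.000227). None of these 4 comparisons had overlapping libraries. Under median-of-ratios scaling the 2 in SOL held (0.24 and 0.44), while EDL turned to -0.02 at 2 months and -0.10 at 5 months, so the direction in EDL depends on the scale. The call in EDL at 5 months was also lost under quantile normalization (0.14, adjusted p = 0.102). In FDB Ldha had 506, 565 and 546 RPKM in mdx at 2 months, against 477, 517, 512 and 543 RPKM in wild type (0.07, adjusted p = 0.483). In FDB at 5 months it had 434 to 564 RPKM in mdx (median 494), against 438 to 457 RPKM in wild type (0.14 ± 0.06, adjusted p = 0.0477), and this call was lost without any one of ns05, ns06, ns08, ns13, ns14, ns15, ns16 and ns55 (0.11 without ns05, adjusted p = 0.123) and turned to -0.17 under median-of-ratios scaling. Relative to adult fibre genes Ldha was 0.28 and 0.51 higher in mdx FDB at 2 and 5 months (adjusted p = 0.0018 and 1e-09). Ldhb, the other subunit, which predominates in heart and slow muscle, fell in all 6 comparisons, by 0.28 (FDB, 5 months) to 1.14 (EDL, 5 months), and turned to 0.08 in FDB at 5 months relative to adult fibre genes.

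The share of Ldhb in the summed level of Ldha and Ldhb had a lower mean in mdx in all 6 comparisons. It was 50.2% ± 6.37 in mdx SOL at 5 months (SD, n = 7) and 69.5% ± 2.35 in wild-type SOL (SD, n = 4). In mdx SOL at 2 months it was 44.6% ± 1.14, against 61.1% ± 2.74 in wild type (SD, n = 4 each). In EDL at 5 months it was 2.47% ± 0.604 in mdx (n = 6) and 6.36% ± 0.972 in wild type (n = 4). The mdx libraries lay below every wild-type library except in FDB at 5 months, where 8.02% to 14.4% in mdx overlapped with 13.2% to 15.8% in wild type. A share within a library does not change when all its levels are multiplied by 1 factor.

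**Figure D4:**
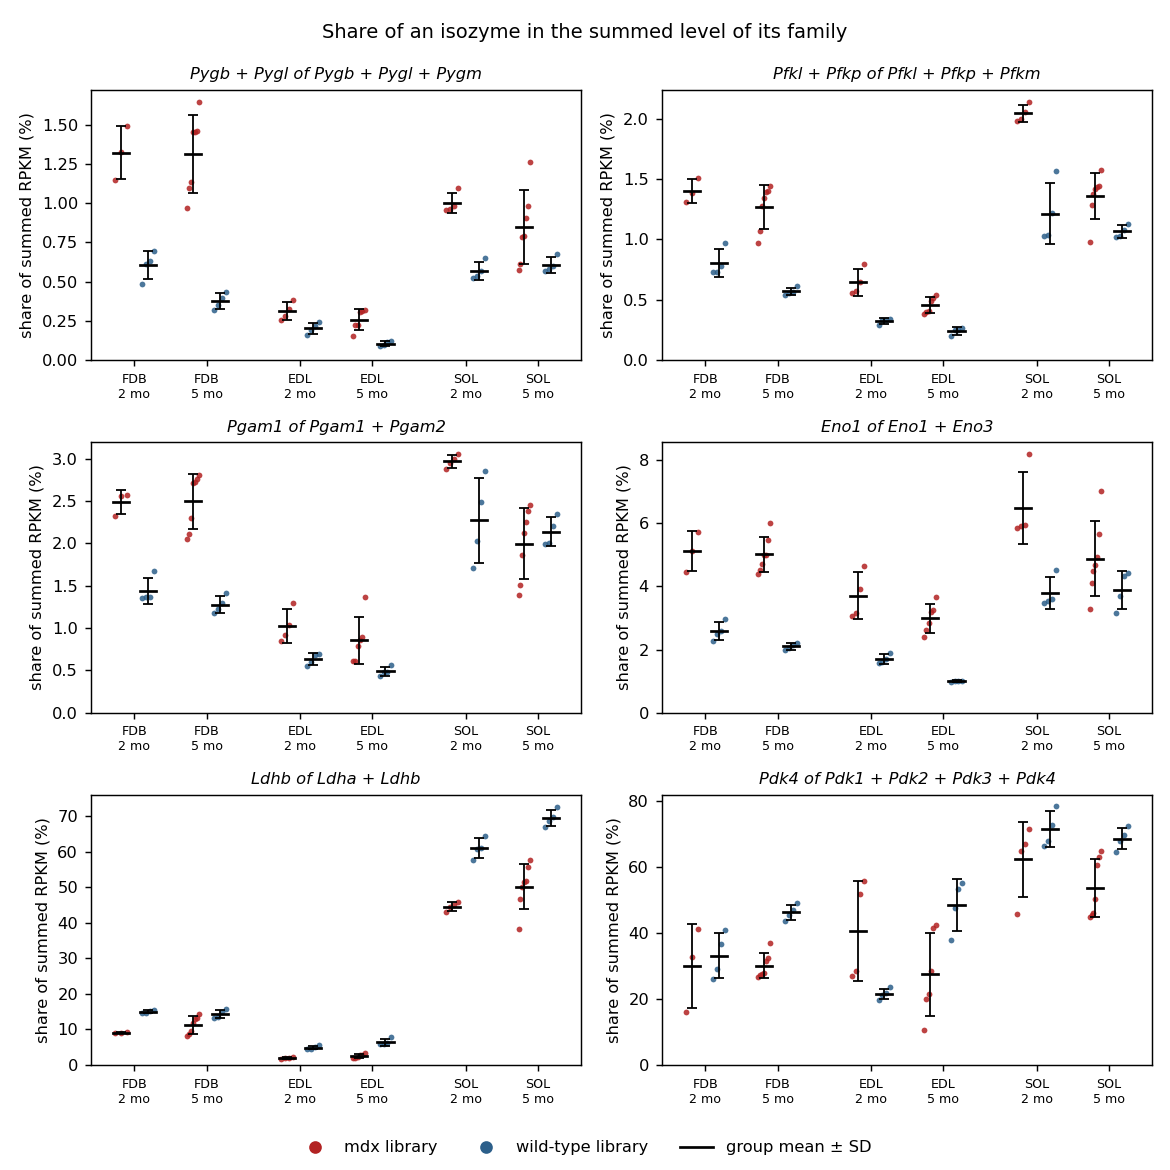
Share of one or more isozymes in the summed RPKM of their family (percent, axes from 0), by muscle and age, with mdx left of wild type. Points are libraries, bars are means with SD (n = 3 to 7). The Ldhb share in SOL at 5 months averages 50.2% in mdx and 69.5% in wild type, the non-muscle shares of the upper 4 panels lie higher in mdx in FDB and EDL, and in SOL at 5 months they overlap.

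Of 14 tested relatives of the 10 genes (Aldoc, with a mean of 0.139 RPKM, was not tested), 8 rose and 5 fell in mdx FDB at 2 months and 9 rose and 5 fell at 5 months. In mdx EDL 8 rose and 4 fell, then 9 rose and 3 fell, and in mdx SOL 6 rose and 4 fell, then 7 rose and 2 fell. Beside these counts, 30.0% to 60.2% of all genes rose and 4.60% to 11.3% fell in the 6 comparisons. Eno1, the enolase of most tissues, rose in all 6, by 0.58 (SOL, 5 months) to 1.54 (EDL, 5 months, adjusted p = 1e-14). Its share of the summed Eno1 and Eno3 level was 2.99% ± 0.455 in mdx EDL at 5 months (SD, n = 6) and 0.995% ± 0.0228 in wild type (SD, n = 4). Pgam1, the general phosphoglycerate mutase, rose in all 6, by 0.40 (SOL, 5 months) to 0.69 (FDB, 5 months), and Pfkp, the platelet phosphofructokinase, by 0.61 (FDB, 2 months) to 0.85 (FDB, 5 months). Pygl, the liver phosphorylase, rose in all 6, and Pygb, the brain phosphorylase, in FDB at both ages and in EDL at 5 months. Eno1 and Pfkp kept their calls under all 3 scalings. Under median-of-ratios scaling Pgam1 lost its call in FDB at 2 months and in SOL at both ages, and Pygl in FDB and EDL at 2 months. Together Pygb and Pygl made up 1.31% ± 0.247 of phosphorylase RPKM in mdx FDB at 5 months (SD, n = 7) and 0.376% ± 0.0507 in wild type (SD, n = 4). The non-muscle shares of phosphorylase, phosphofructokinase, phosphoglycerate mutase and enolase lay above every wild-type library in FDB and EDL at both ages and in SOL at 2 months, and overlapped in SOL at 5 months. In FDB at 5 months macrophage markers were higher in mdx as well, summing to 515 to 835 RPKM in mdx and 119 to 180 RPKM in wild type. Regenerating-fibre markers summed to 96.3 to 239 RPKM in those mdx libraries and 30.8 to 40.1 RPKM in wild type. Both were also higher in mdx SOL at 5 months, where the shares overlapped. Mean shares there in mdx and wild type were 4.88% and 3.9% for enolase and 0.845% and 0.606% for phosphorylase. They were 1.36% and 1.07% for phosphofructokinase, and 1.99% and 2.14% for phosphoglycerate mutase. There macrophage markers summed to 194 to 550 RPKM in mdx and 18.9 to 55.5 RPKM in wild type. Regenerating-fibre markers summed to 45.5 to 194 RPKM in mdx SOL and 12.6 to 19.0 RPKM in wild type. The part of these markers in the shares was not tested.

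Pdk4, the pyruvate dehydrogenase kinase induced by fasting and fat use (chromosome 6, 5483351 to 5496278, minus strand), fell in all 3 muscles of mdx mice at 5 months and, as deposited, passed in none at 2 months. In FDB at 5 months it had 54.7 to 88.4 RPKM in mdx (median 63.8), against 208, 168, 165 and 167 RPKM in wild type (-1.44 ± 0.35, adjusted p = 0.000394). In EDL at 5 months it had 49.5, 110, 23.0, 41.7, 65.3 and 130 RPKM in mdx, against 224, 247, 126 and 194 RPKM in wild type (-1.67 ± 0.36, adjusted p = 7.1e-05). In SOL at 5 months it had 158 to 360 RPKM in mdx (median 204), against 453, 528, 383 and 476 RPKM in wild type (-1.03 ± 0.35, adjusted p = 0.00884). The groups did not overlap in FDB and SOL, and in EDL 1 of the 6 mdx libraries stood above the lowest wild-type one. These 3 falls passed under each alternative tried and with any one library left out, and over both ran from -1.74 to -1.07 in FDB, -2.05 to -1.36 in EDL and -1.30 to -0.93 in SOL.

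At 2 months Pdk4 spread widely between libraries. In FDB it had 29.1, 76.3 and 107 RPKM in mdx, against 69.4, 116, 138 and 80.3 RPKM in wild type (-0.63 ± 0.42, adjusted p = 0.243). In EDL it had 196, 53.7, 147 and 51.4 RPKM in mdx, against 58.0, 46.2, 53.2 and 49.3 RPKM in wild type (0.86 ± 0.39, adjusted p = 0.0614). Of the 4 mdx EDL libraries, 2 stood well above wild type and 2 among it, and the difference passed without ns34 or ns36 (1.13 and 1.15, adjusted p = 0.0209 and 0.0207) and relative to adult fibre genes (0.95, adjusted p = 0.0346). In SOL it had 121, 317, 282 and 417 RPKM in mdx, against 435, 522, 680 and 368 RPKM in wild type (-0.91 ± 0.39, adjusted p = 0.0586), and it passed without ns20 (-1.14, adjusted p = 0.0281) or ns28 (-1.05, adjusted p = 0.0498) and under median-of-ratios scaling (-1.11, adjusted p = 0.0204). The change in the mdx effect with age passed in EDL, at -2.53 ± 0.53 (5 minus 2 months, adjusted p = 0.00199; 1.07% of all genes were lower and 4.85% higher in that test). It was -0.80 in FDB (interval -1.87 to 0.27) and -0.12 in SOL (-1.14 to 0.905) and did not pass there. In wild-type EDL, Pdk4 was 1.88 ± 0.39 higher at 5 than at 2 months (adjusted p = 0.000418; 2.57% of all genes were higher and 21.2% lower), with 198 ± 52.3 RPKM at 5 months and 51.7 ± 5.10 RPKM at 2 months (SD, n = 4 each).

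The sister kinases Pdk1 and Pdk2 were also lower in mdx, Pdk1 in all 6 comparisons, by 0.23 (EDL, 2 months) to 0.58 (SOL, 5 months), and Pdk2 in 5 of the 6, SOL at 5 months being at -0.04. Pdk3, at a mean of 1.3 RPKM, rose in all 6, by 0.31 (FDB, 2 months) to 0.95 (EDL, 5 months). Pdk4 made up 30.1% ± 3.77 of the summed kinase level in mdx FDB at 5 months (SD, n = 7) and 46.3% ± 2.33 in wild type (SD, n = 4), with no overlap. This was the only one of the 6 comparisons in which every mdx share lay below wild type. At 5 months the Pdk4 share was 27.5% ± 12.6 in mdx EDL (n = 6) and 48.6% ± 7.83 in wild-type EDL (n = 4), and 53.7% ± 8.94 in mdx SOL (n = 7) and 68.7% ± 3.28 in wild-type SOL (n = 4), and both overlapped. At 2 months it was 40.8% ± 15.1 in mdx EDL and 21.6% ± 1.57 in wild-type EDL (n = 4 each), with every mdx library above wild type, and it overlapped in FDB (30.1% and 33.2%) and SOL (62.4% and 71.5%). Of 10 other genes of pyruvate transport and the dehydrogenase complex, 0 to 1 rose and 3 to 6 fell in a given comparison, against 30.0% to 60.2% of all genes that rose and 4.60% to 11.3% that fell. Mpc2, a subunit of the mitochondrial pyruvate carrier, fell in 5 of the 6, by 0.29 (EDL, 5 months) to 0.46 (EDL, 2 months), and Pdha1, the subunit that the kinases phosphorylate, fell in 5, by 0.16 (FDB, 5 months) to 0.34 (SOL, 5 months). Of these 10, 7 to 9 fell in a given comparison under median-of-ratios scaling, while relative to adult fibre genes 6 rose and 0 fell in FDB at 5 months, where 11351 of the 12541 tested genes rose. Under median-of-ratios scaling 3285 (FDB, 2 months) to 8025 (FDB, 5 months) of the 12541 were called. In those 2 comparisons 1224 and 3255 of the called genes were higher and the rest lower. On the scale of fibre genes Pdk1 kept its fall in 2 of the 6 comparisons, Pdk2 in 1 and Mpc2 in 1, and Pdha1 in FDB turned to 0.02 and 0.21. Pdk2 in SOL at 5 months fell by 0.32 under median-of-ratios scaling and by 0.25 under quantile normalization. Pdk3 in FDB at 2 months was lost under both of those (adjusted p = 0.0945 and 0.251).

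In SOL the mdx effect was higher at 5 than at 2 months for 4 of the 10 genes, Pgam2 (0.48 ± 0.12, adjusted p = 0.00438), Phkg1 (0.45 ± 0.15, adjusted p = 0.0351), Aldoa (0.32 ± 0.11, adjusted p = 0.0498) and Ldha (0.28 ± 0.10, adjusted p = 0.0434), against 11% of all genes that were higher and 2.99% that were lower. All mdx SOL libraries at 5 months have numbers outside the range of the other SOL libraries. A change with age in mdx SOL therefore cannot be told apart from a difference between those ranges. The count was 0 under median-of-ratios scaling and 1 under quantile normalization, and 1 to 6 when each library was left out. Of the 4, Pgam2 kept its call without any one library, while Aldoa lost it without any of 16 libraries, Ldha without any of 11 and Phkg1 without any of 6 (ns17, ns19, ns26, ns28, ns29 and ns30). In FDB the mdx effect changed with age for none of the 10 (0.989% of all genes were higher and 0.351% lower), Gpd1 coming nearest at 0.81 (adjusted p = 0.0532) and passing without ns06 (0.87, adjusted p = 0.016) or ns08 (0.79, adjusted p = 0.0488). Wild-type Gpd1 fell with age in FDB, to 24.6 ± 2.04 RPKM at 5 months, against 62.5 ± 6.82 RPKM at 2 months (SD, n = 4 each; -1.31 ± 0.16, adjusted p = 7.19e-08; 27.3% of all genes were lower and 6.33% higher). In mdx FDB, where 3.46% of all genes were lower and 2.42% higher, Gpd1 was also lower at 5 months (-0.51, adjusted p = 0.0425), a call lost without any one of 7 libraries, under median-of-ratios scaling (adjusted p = 0.0907) and with a pseudocount of 0.1 (adjusted p = 0.0523). In mdx EDL, where 6% of all genes were higher and 11.6% lower, Pfkm was 0.32 higher at 5 months (adjusted p = 0.000347), a call lost under quantile normalization (0.21, adjusted p = 0.096). The Pgm1 row was 0.39 lower there, and that call was lost without ns35 or ns36. In wild-type SOL, where 13.7% of all genes were lower and 3.58% higher, Gpd1 (-0.54), the Pgm1 row (-0.41) and Ldha (-0.30) were lower at 5 months, and of these Ldha kept its call with each library left out but lost it under median-of-ratios scaling (-0.18, adjusted p = 0.175). Gpd1 lost its call under median-of-ratios scaling and quantile normalization (adjusted p = 0.0589 and 0.0572), and the Pgm1 row under quantile normalization (adjusted p = 0.0878). Within mdx SOL, Pfkm (0.29), Pgam2 (0.30), Aldoa (0.23), Eno3 (0.24), Phkg1 (0.26) and Pygm (0.18) were higher at 5 than at 2 months, as were 20.6% of all genes, with 20.2% lower. The Pgm1 row was lower at 5 months (-0.42, adjusted p = 0.00265). Of the 6 that were higher, Pfkm and Pgam2 passed without any one library. The calls of Aldoa (ns17), Phkg1 (ns17, ns19, ns49 and ns58), Eno3 (ns17, ns19, ns49, ns52 and ns58) and Pygm (ns17, ns19, ns49, ns51 and ns58) did not, and under quantile normalization none of the 6 passed. There Pfkm was at 0.03 (adjusted p = 0.833), Pgam2 at 0.09 (adjusted p = 0.288) and Pygm turned to -0.18, while Ldha was 0.33 lower at 5 months (adjusted p = 0.000421).

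At 5 months the mdx effect was lower in FDB than in SOL for 7 of the 10 genes (12% of all genes were lower and 13.7% higher), by 0.33 (Pfkm) to 0.79 (Pgam2, adjusted p = 5.42e-07). It was lower in FDB than in EDL for 3 (11.3% of all genes were lower and 7.14% higher), Pygm (-0.37), Phkg1 (-0.46) and Pfkm (-0.26), with adjusted p of 0.0102, 0.0154 and 0.029. The call for Pfkm was lost without any one of ns13, ns46, ns47 and ns62 (-0.23 without ns13, adjusted p = 0.0807). It was higher in SOL than in EDL for 3 (6.28% of all genes were higher and 12.7% lower), Pgam2 (0.60), Ldha (0.44) and Aldoa (0.39), with adjusted p of 0.000103, 0.000549 and 0.00892, and Aldoa lost its call under quantile normalization (0.27, adjusted p = 0.301). The count for FDB against EDL was 0 under median-of-ratios scaling, and that for FDB against SOL was 4 under quantile normalization. At 2 months the limma test called 0 of the 10 between FDB and EDL, FDB and SOL, or SOL and EDL, against 5.33%, 1.55% and 2.35% of all genes. Ldha in FDB against SOL (-0.37, adjusted p = 0.0615) and Pdk4 in SOL against EDL (-1.78, adjusted p = 0.075) came nearest, and Ldha passed under quantile normalization (-0.44, adjusted p = 0.0441). The fall of Pdk4 at 5 months did not pass a test of difference in any pair of muscles, at 0.64 for SOL against EDL (interval -0.336 to 1.61), 0.23 for FDB against EDL (-0.741 to 1.21) and -0.41 for FDB against SOL (-1.37 to 0.555).

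The 5-month mdx libraries come from more than one range of library numbers, the first (ns01 to ns48), the second (ns49 to ns53) and the third (ns54 to ns65), and no source gives a date or run for them. All wild-type libraries and all 2-month libraries lie in the first range. No mdx SOL library at 5 months does, so every comparison above that uses that group cannot be told apart from a difference between ranges. Set against those wild-type libraries, the mdx libraries of each range alone gave a fall of Pdk4 that passed. It was -1.42 with the first range (3 mdx libraries) and -1.45 with the third (4) in FDB, and -1.36 (2) and -1.82 (4) in EDL. In SOL it was -0.97 with the second (4) and -1.11 with the third (3). Only the values of the first range compare libraries within 1 range. That of EDL rests on 2 mdx libraries and on a spread that limma estimated over all 12 groups. For Ldha the rises in SOL were 0.68 and 0.76 and those in EDL 0.34 and 0.25. In FDB it rose by 0.27 with the first range and did not pass with the third (0.05, adjusted p = 0.478). In FDB, Eno3 was at -0.11 (adjusted p = 0.164) in the first range and -0.47 in the third. In SOL, Pgam2 was at 0.72 and 0.32, Aldoa at 0.41 and 0.25, and Eno3 at 0.36 and 0.16 (adjusted p = 0.0877) in the second and the third. Gpd1 in SOL was at 0.08 (adjusted p = 0.531) and 0.66. In mdx SOL at 5 months fast-fibre markers summed to 23534 to 38908 RPKM in the second and 17375 to 26067 RPKM in the third, ranges that overlap, against 21750 to 24770 RPKM in wild type. Depth was 21.4 to 25.7 M reads in the second range and 44.5 to 60.1 M reads in the third. In mdx FDB at 5 months adult fibre genes summed to 20153 to 22912 RPKM in the first range and 16245 to 16944 RPKM in the third, and Schwann cell markers to at most 57.6 RPKM in the first and 170 to 255 RPKM in the third. Wild-type FDB had 21150 to 22590 RPKM of adult fibre genes and 49.6 to 84.4 RPKM of Schwann cell markers. The part of these in the gene differences was not tested. In the authors' deposited table the ratio of mdx to wild type for Pdk4 at 5 months was 0.367 in FDB, 0.328 in EDL and 0.485 in SOL, and for Ldha 1.12, 1.23 and 1.65.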

How the data were processed

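Per the labels' protocols, dissected muscles went into a preservative and then Trizol, and the NuGEN Mondrian SP kit made libraries from RNA that an NEBNext module had selected by its poly(A) tail. The authors mapped reads to mm10 with TopHat and computed RPKM in Partek, per the file headers, and Partek 6.6, TopHat2 2.1.0 and CASAVA 1.8.2 stand in the submitters' processing notes. Which annotation was used, whether strand counted and what became of multi-mapping reads is not given in the sources used here. Therefore values of genes that overlap others (Phkg1, Gpd1, Pfkm, Aldoa and Eno3) can include their reads. The authors' deposited table of comparisons gives each ratio of mdx to wild type, which is quoted only where named. No counts were used, so depth was estimated from the steps between low RPKM values of 3261 short genes, of which 70.4% to 81.7% in a library lay within 0.1 read of a whole number, too few to recover counts.

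RPKM values were taken as log2(RPKM + 1) and fitted with limma 3.58.1 in R 4.3.3, with 12 group means in 1 model, a trended prior and Benjamini-Hochberg adjustment over 12541 genes of 24453 within each of 33 comparisons. The pseudocount of 1 understates the differences of low genes such as the Pgm1 row. The library columns name a group but no replicate number, so libraries are called by their IDs. Within-group correlations ran from 0.973 to 0.9978 over 108 pairs, and 0 pairs were identical. Alternatives were a pseudocount of 0.1, no filter or a mean of 5 RPKM, median-of-ratios and quantile scaling, the 2 groups alone and each library left out. The 5-month mdx libraries of each range of library IDs were also set alone against all wild-type libraries of the same muscle and age. Added after seeing the data were values relative to 6 adult fibre genes and the related genes under the 3 scalings. The 10 genes, the lists of related genes and the rule that all 10 are described were chosen with earlier results of these data known, and the likeness rule named the 5 genes of highest Pearson's r. Sequences and positions come from RefSeq and GENCODE annotation on GRCm38.p6, the assembly of mm10. Of the table's symbols 23276 are current in RefSeq and 1066 are older names only.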

Additional observations from a re-analysis of the deposited data

Results flagged for a closer look

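A library that stood apart from the rest of its group was looked for in the 110 sets of 4 to 7 libraries that the 10 genes and 11 groups gave, and 6 were found, where chance gives about 1 in 20. Gpd1 in mdx SOL at 5 months had 46.85 RPKM in ns58 and 17.22 to 25.91 RPKM in the other libraries. Pdk4 in mdx FDB at 5 months had 88.39 RPKM in ns55, above the others, and Pdk4 in wild-type FDB at 5 months had 208.4 RPKM in ns13, above the others. Pfkm had 862.9 RPKM in ns08, above the others of mdx FDB at 5 months, and 849.8 RPKM in ns09, below the others of wild-type FDB at 2 months. Ldha in wild-type EDL at 2 months had 1036 RPKM in ns43, below the others.

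The mdx effect differed by a test of the difference itself in 18 of 90 cases. Between ages (5 minus 2 months) these were Pdk4 in EDL (-2.53) and Phkg1, Aldoa, Pgam2 and Ldha in SOL (0.45, 0.32, 0.48 and 0.28). At 5 months, between SOL and EDL, they were Aldoa, Pgam2 and Ldha (0.39, 0.60 and 0.44), with 6.28% of all genes higher and 12.7% lower. Between FDB and EDL they were Pygm, Phkg1 and Pfkm (-0.37, -0.46 and -0.26), with 7.14% of all genes higher and 11.3% lower. Between FDB and SOL they were Pygm, Phkg1, Pfkm, Aldoa, Pgam2, Eno3 and Ldha (-0.40, -0.50, -0.33, -0.64, -0.79, -0.59 and -0.57).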

How the results depend on the processing

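No paired analysis was possible because the library columns carry no replicate number. A value that passed neither as reported nor under an alternative was not counted as turned when its sign changed. With each library left out, 514 of 550 values of mdx against wild type kept their call, 30 lost it, 6 gained it and 0 turned. Median-of-ratios scaling kept 38 of 60, and turned Ldha in FDB at 5 months (-0.17) and in EDL at 2 and 5 months (-0.0192 and -0.103), Pfkm in SOL at 5 months (-0.23), Ldha in mdx FDB against SOL at 5 months (-0.25) and Pgam2 in wild-type FDB against SOL at 2 months (-0.0041). Under it the genes called numbered 8 for EDL at 5 months, 0 for the change of the mdx effect with age in SOL, 0 for the mdx effect of FDB against EDL at 5 months, 0 for age in mdx FDB, 3 for age in wild-type EDL, 1 for age in wild-type SOL and 5 for mdx FDB against SOL at 5 months. Quantile normalization turned the change of the mdx effect with age in SOL of Aldoa (-0.0388) and Ldha (-0.0935), age in mdx SOL of Pygm (-0.18), and mdx FDB against SOL of Pgam2 at 2 months (0.20) and 5 months (0.0748). Under it the genes called numbered 3 for FDB and 2 for SOL at 2 months, 4 for SOL at 5 months, 1 for the change of the mdx effect with age in SOL, 1 and 4 for the mdx effect of FDB against SOL at 2 and 5 months, 2 for age in mdx SOL and 1 for age in wild-type FDB. Relative to adult fibre genes 4 were called in FDB at 5 months, where Pfkm (0.0771), Aldoa (0.0689), Pgam2 (0.122) and Eno3 (0.0484) turned. With a pseudocount of 0.1 the counts were 0 for age in mdx FDB and 2 for age in wild-type EDL, and with the 2 groups alone 4 for SOL at 5 months. With each library left out the counts ran from 3 to 7 for FDB at 2 months, 0 to 1 for the change of the mdx effect with age in FDB and 1 to 6 in SOL, 0 to 1 for the mdx effect of FDB against SOL and of SOL against EDL at 2 months, 0 to 1 for age in mdx FDB, 1 to 2 in mdx EDL, 3 to 7 in mdx SOL, 1 to 2 in wild-type FDB and EDL and 1 to 3 in wild-type SOL. The causes were not tested. Of the 12541 tested genes, 7697 were called for EDL at 5 months under median-of-ratios scaling. Under quantile normalization 3305 and 5135 were called for FDB and SOL at 2 months, and 7629 for SOL at 5 months. A filter of 5 RPKM leaves out the Pgm1 row and changed no call of the other genes. Depth was lowest in EDL, at 20.3 M (mega) reads.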

Other observations

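Genes beside the main route also differed between mdx and wild type. Fbp2, the muscle fructose bisphosphatase that runs against phosphofructokinase, fell in EDL at both ages, to 10.7 ± 2.08 RPKM in mdx at 2 months, against 22.5 ± 3.14 RPKM in wild type (SD, n = 4 each; log2 difference -1.02, limma adjusted p = 1.21e-07), and to 6.81 ± 1.33 RPKM in mdx at 5 months (n = 6), against 17.6 ± 3.94 RPKM in wild type (n = 4). It also fell by 0.46 in FDB, a call lost relative to adult fibre genes (-0.10, adjusted p = 0.467), and 0.59 in SOL at 5 months. Pfkfb3, which makes the activator fructose 2,6-bisphosphate, rose in EDL at 2 and 5 months (0.96 and 0.92) and in SOL at 5 months (1.03), of which the one in EDL at 5 months was lost under median-of-ratios scaling (0.56, adjusted p = 0.0749), while Pfkfb1 fell in all 6 comparisons.

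Slc2a4, the insulin-responsive glucose transporter, fell in 5 of the 6 comparisons, by 0.22 (EDL, 5 months) to 0.41 (FDB, 5 months), and was at 0.02 in SOL at 5 months. Relative to adult fibre genes 4 of these 5 falls were lost, and under median-of-ratios scaling SOL at 5 months turned to -0.25 (adjusted p = 0.0208). Slc16a3, the lactate exporter of fast fibres, rose by 0.89 in SOL at 5 months (limma adjusted p = 7.95e-06) and did not pass in the other 5 as deposited. Under median-of-ratios scaling it fell by 0.43 in EDL and 0.45 in FDB at 5 months. Ppp1r3c, another glycogen-targeting subunit, fell in FDB (-0.85, and -0.49 with adjusted p = 0.0953 relative to adult fibre genes) and EDL (-0.83) at 5 months, 2 of the 3 muscles in which Pdk4 fell at that age, and was at -0.16 in SOL (adjusted p = 0.646).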
